A study of Homo sapiens with 3 samples.

Results

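The 10 genes described here mark or control the epithelial-mesenchymal transition, and all 10 were found among the 58037 genes of the count table by their Ensembl identifiers. They were measured in 3 bulk RNA libraries from RWPE1, an immortalized line of adult human prostate epithelial cells grown in prostate epithelial medium, with 1 library per condition and therefore no replicates. The 3 conditions are OLFM4-wild cells, OLFM4-knockout cells made with paired Cas9 nickase plasmids against OLFM4, and cells labelled OLFM4-active. By the study's methods RNA came from bulk cells sorted on GFP, stable lines were obtained in puromycin, and plasmids for CRISPR activation or knockout of OLFM4 were used to make GFP reporter lines called OLFM4-wild and OLFM4-knockout. Which line gave the OLFM4-wild library and which the library labelled OLFM4-active, and how many clones went into each, was not given in the sources used here.

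In the epithelial-mesenchymal transition, epithelial cells loosen the cell-cell junctions built on E-cadherin and take on vimentin filaments, N-cadherin and a fibronectin-rich matrix. Transcription factors of the SNAIL, ZEB and TWIST families bind E-box sequences and repress epithelial genes, whereas OVOL factors and the splicing regulators ESRP1 and ESRP2 hold the epithelial state. Basal epithelial cells are known to carry P-cadherin and SNAI2 and often some vimentin without leaving the epithelial state. The comparisons ask how these genes differ from OLFM4-wild cells in cells in which OLFM4 was targeted for knockout and in the library labelled OLFM4-active.

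Read pairs assigned to genes summed to 16309906 in OLFM4-wild cells, 58837147 in OLFM4-knockout cells and 23224216 in the library labelled OLFM4-active. Levels are in CPM, counts scaled to a common library size with TMM factors. Log2 fold changes were taken as in limma-voom, and 95% Clopper-Pearson intervals cover counting error only, so every difference is between libraries. OLFM4 itself had 214 counts in OLFM4-wild cells, 131 in OLFM4-knockout cells and 16 in the library labelled OLFM4-active. Transcripts of the targeted gene were thus still counted in the knockout and were fewest in the library labelled OLFM4-active, which goes against that label, so the library is named by its label throughout. A gene is called higher above a log2 fold change of 1 and lower below -1, which is a rule of size and not a test. Among the 16600 genes that averaged 1 CPM or more, 5.77% were called higher and 7.56% lower in OLFM4-knockout relative to OLFM4-wild cells. With library totals in place of TMM, 2.22% were called higher and 13.9% lower, so that 13.8% instead of 43.3% of the calls were higher. The median of all 16600 genes moved with it from 0.10 to -0.26, so directions that depend on the scaling are given with both values.

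All 10 genes passed the filter of 1 CPM. In OLFM4-knockout relative to OLFM4-wild cells 0 of the 10 were called higher and 2 lower, VIM and ZEB1, beside the 7.56% of all genes called lower. With library totals 4 were called lower, CDH2 and SNAI2 being the others, beside the 13.9% of all genes. The median over the 10 genes was -0.23, against 0.10 over all genes. Of the 10 intervals 3 lay above 0, 6 lay below 0 and 1, that of TWIST1, included 0. In the library labelled OLFM4-active relative to OLFM4-wild cells 0 were called higher and the same 2 genes lower, where 3.78% and 6.73% of all genes were called higher and lower with TMM, and 2.89% and 8.36% with totals, which called FN1 lower as well. There the median over the 10 genes was -0.71, against 0.05 over all genes. Both comparisons use the same OLFM4-wild library, so their values are not independent.

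**Figure D1:**
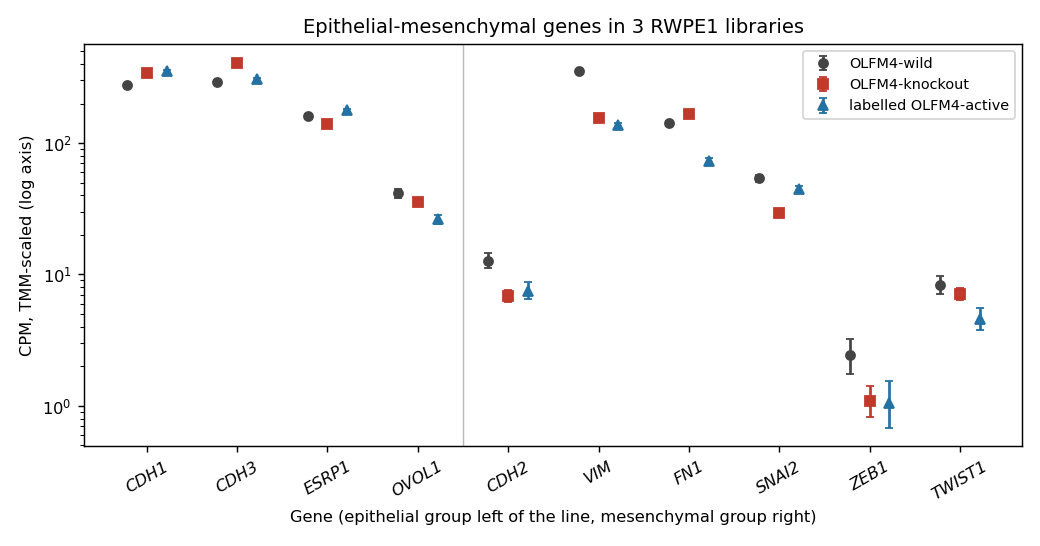
CPM on a log axis of each of the 10 genes in the OLFM4-wild (circles), OLFM4-knockout (squares) and OLFM4-active-labelled (triangles) libraries, with 95% counting intervals as bars and 1 library per symbol. CDH1 and CDH3 stay within a narrow range near the top, VIM and ZEB1 are highest in OLFM4-wild cells, and FN1 is lowest in the library labelled OLFM4-active.

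CDH1, which encodes E-cadherin, the main adhesion molecule of epithelial cells, had 5003 counts in OLFM4-wild cells, 17439 in OLFM4-knockout cells and 8401 in the library labelled OLFM4-active. These correspond to 275 CPM (95% interval 268 to 283), 340 CPM (335 to 345) and 352 CPM (344 to 359). CDH1 was thus lowest in OLFM4-wild cells, and the other two lay close together. Its log2 fold change in OLFM4-knockout relative to OLFM4-wild cells was 0.30 (0.26 to 0.35) with TMM and -0.05 with library totals, so the direction depends on the scaling. Against the same library it was 0.35 (0.30 to 0.40) in the library labelled OLFM4-active, and 0.24 with totals. The gene lies at chr16:68737292-68835537 (plus strand, GRCh38).

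CDH3 encodes P-cadherin, the classical cadherin of basal epithelial cells. It lies upstream of CDH1 on the same strand, at chr16:68636189-68727468, with 9823 bases between them. It had 5320, 20874 and 7284 counts in OLFM4-wild cells, OLFM4-knockout cells and the library labelled OLFM4-active, or 293, 407 and 305 CPM. P-cadherin was highest in OLFM4-knockout cells, with a log2 fold change of 0.47 (0.43 to 0.52) against OLFM4-wild cells and 0.12 with totals. For the library labelled OLFM4-active the value was 0.06 (0.01 to 0.11) with TMM and -0.06 with totals. The adjacent cadherin genes therefore did not have the same order of levels across the libraries: CDH3 counts were 106 (102 to 111), 120 (117 to 122) and 86.7 (84.0 to 89.5) per 100 CDH1 counts. These ratios within a library do not depend on how the libraries were scaled.

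CDH2 encodes N-cadherin, the cadherin of mesenchymal and neural cells, and lies at chr18:27932879-28177946 (minus strand). It was scarce, with 232 counts or 12.8 CPM (11.2 to 14.5) in OLFM4-wild cells, 350 counts or 6.82 CPM (6.12 to 7.57) in OLFM4-knockout cells and 180 counts or 7.53 CPM (6.47 to 8.72) in the library labelled OLFM4-active. The OLFM4-wild interval lay above the other two, which overlapped. The log2 fold change was -0.91 (-1.15 to -0.66) in OLFM4-knockout cells, just inside the limit of -1, and -1.26 with totals. For the library labelled OLFM4-active it was -0.76 (-1.05 to -0.47). For every 100 CDH1 counts there were 4.64 (4.05 to 5.29) CDH2 counts in OLFM4-wild cells, 2.01 (1.80 to 2.23) in OLFM4-knockout cells and 2.14 (1.84 to 2.48) in the library labelled OLFM4-active.

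Of the 8 cadherins in the list of classical and related cadherins, 6 passed 1 CPM. CDH1 and CDH3 were above 0 with TMM in both comparisons with OLFM4-wild, although with totals CDH1 was at -0.05 in the knockout and CDH3 at -0.06 in the library labelled OLFM4-active, and the other 4 were below 0 in both under either scaling. CDH4, which encodes R-cadherin, had the lowest value in OLFM4-knockout cells, -1.76 (-2.22 to -1.30), with 91 counts in OLFM4-wild cells and 76 in each of the others. CDH11, which encodes the cadherin of osteoblasts and mesenchymal cells, had -0.98 in OLFM4-knockout cells and -1.12 in the library labelled OLFM4-active. CDH13, which encodes a cadherin anchored to the membrane by lipid, had -0.92 and -0.94 in the same order. CDH5 was listed at 0 in every library, and CDH6 had 1 count in OLFM4-wild cells and 0 in the others.

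VIM encodes vimentin, the intermediate filament protein of mesenchymal cells, and lies at chr10:17228241-17237593 (plus strand). There were 6382 VIM counts in OLFM4-wild cells, or 351 CPM (343 to 360), 7962 in OLFM4-knockout cells, or 155 CPM (152 to 159), and 3306 in the library labelled OLFM4-active, or 138 CPM (134 to 143). VIM was thus highest in OLFM4-wild cells, with the others at 0.442 and 0.394 times its level. The log2 fold change was -1.18 (-1.23 to -1.13) in OLFM4-knockout cells and -1.34 (-1.40 to -1.28) in the library labelled OLFM4-active, and with totals -1.53 and -1.46. In the OLFM4-knockout comparison 5.51% of the 16600 genes had a value as low or lower. Counting error does not cover these differences, but with 1 library each the spread between cultures is unknown.

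Set against E-cadherin in the same library, which needs no scaling between libraries, VIM had 128 counts (123 to 132) per 100 CDH1 counts in OLFM4-wild cells, 45.7 (44.5 to 46.9) in OLFM4-knockout cells and 39.4 (37.8 to 41.0) in the library labelled OLFM4-active. VIM thus exceeded CDH1 in counts in OLFM4-wild cells and was below it in the others. Per transcript length (TPM over merged exons), VIM had the highest level of the 10 genes in OLFM4-wild cells, at 135 TPM beside 91.3 for CDH3 and 90.3 for CDH1, followed by ESRP1 at 65.6, SNAI2 at 32.9, OVOL1 at 21.7, FN1 at 16.3 and TWIST1 at 8.35. In OLFM4-knockout cells CDH3 and CDH1 came before it at 79.6 and 70.0 TPM, with VIM at 37.5, and after ESRP1 came FN1 at 12.2, OVOL1 at 11.8, SNAI2 at 11.1 and TWIST1 at 4.42. ZEB1 was the lowest of the 10 in all 3 libraries, and CDH2 came just above it. For the library labelled OLFM4-active the order was CDH1 at 109 TPM, CDH3 at 90.2, ESRP1 at 68.9, VIM at 50.6, SNAI2 at 25.6, OVOL1 at 13.1, FN1 at 8.03 and TWIST1 at 4.36. CDH3 and CDH1 in OLFM4-wild cells, and VIM and ESRP1 at 35.6 TPM in OLFM4-knockout cells, were close neighbours, as were FN1, OVOL1 and SNAI2 in the latter, and no spread between cultures is known to set their order against. With the canonical transcript's length in place of merged exons, VIM came before CDH1 in OLFM4-knockout cells and before ESRP1 in the library labelled OLFM4-active.

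FN1 encodes fibronectin, a matrix glycoprotein that cells bind through integrins, and lies at chr2:215360440-215436073 (minus strand). It had 2564 counts or 141 CPM (136 to 147) in OLFM4-wild cells, 8597 counts or 167 CPM (164 to 171) in OLFM4-knockout cells and 1746 counts or 73.1 CPM (69.7 to 76.6) in the library labelled OLFM4-active. FN1 was low in the library labelled OLFM4-active alone, whereas VIM was low in both. The log2 fold change in OLFM4-knockout relative to OLFM4-wild cells was 0.25 (0.18 to 0.31) with TMM and -0.11 with totals. For the library labelled OLFM4-active it was -0.95 (-1.04 to -0.86), just inside the limit, and -1.06 with totals. FN1 was the only one of the 10 genes called between OLFM4-knockout cells and the library labelled OLFM4-active, at 1.20 (1.12 to 1.27), where 2.95% of all genes were called higher and 3.39% lower. That call is lost with totals, at 0.96, where 1.28% were called higher and 6.84% lower. FN1 counts per 100 VIM counts were 40.2 (38.4 to 42.1) in OLFM4-wild cells, 108 (105 to 111) in OLFM4-knockout cells and 52.8 (49.8 to 56.0) in the library labelled OLFM4-active, so fibronectin and vimentin transcripts did not keep a common ratio.

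**Figure D2:**
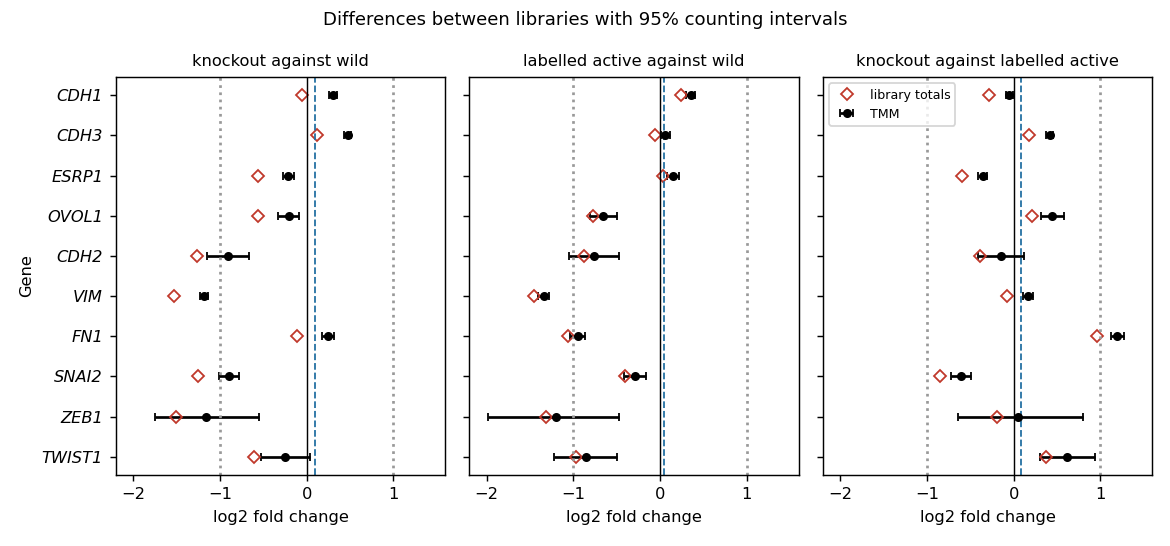
Log2 fold change of the 10 genes in the 3 comparisons, with TMM (filled circles, bars are 95% counting intervals) and with library totals (open diamonds). Dotted lines mark the limits of -1 and 1 and the dashed line the median of all 16600 genes; VIM and ZEB1 lie below -1 in both comparisons with OLFM4-wild, and FN1 above 1 in the right panel.

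SNAI2 encodes SLUG, an E-box repressor that basal epithelial cells also use, and lies at chr8:48917598-48921740 (minus strand). It had 983 counts or 54.1 CPM (50.8 to 57.6) in OLFM4-wild cells, 1495 counts or 29.1 CPM (27.7 to 30.6) in OLFM4-knockout cells and 1061 counts or 44.4 CPM (41.8 to 47.2) in the library labelled OLFM4-active. The intervals of the 3 libraries did not overlap, with OLFM4-knockout cells lowest. The log2 fold change in OLFM4-knockout cells was -0.89 (-1.01 to -0.78) with TMM, not called, and -1.25 with totals, called. For the library labelled OLFM4-active it was -0.28 (-0.41 to -0.16). Per 100 CDH1 counts SNAI2 had 19.6 (18.3 to 21.0), 8.57 (8.13 to 9.04) and 12.6 (11.8 to 13.5) counts in OLFM4-wild cells, OLFM4-knockout cells and the library labelled OLFM4-active.

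ZEB1, a zinc finger and homeodomain repressor of CDH1 and of the miR-200 microRNA genes, lies at chr10:31318495-31529814 (plus strand). Its counts were few, at 44 in OLFM4-wild cells, 56 in OLFM4-knockout cells and 25 in the library labelled OLFM4-active, or 2.42 CPM (1.76 to 3.25), 1.09 CPM (0.824 to 1.42) and 1.05 CPM (0.677 to 1.55). The OLFM4-wild interval lay above the other two, which overlapped almost wholly. The log2 fold changes against it were -1.15 (-1.75 to -0.55) and -1.20 (-1.98 to -0.47), so the counts place ZEB1 below the OLFM4-wild level but do not settle the side of -1 on which it lay. Set beside ESRP1, ZEB1 had 1.51 (1.09 to 2.03) counts per 100 in OLFM4-wild cells and 0.787 (0.594 to 1.02) in OLFM4-knockout cells.

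TWIST1, a basic helix-loop-helix factor of mesoderm that can induce the transition, lies at chr7:19020991-19117636 (minus strand). With 152, 362 and 110 counts it had 8.37 CPM (7.09 to 9.81) in OLFM4-wild cells, 7.05 CPM (6.34 to 7.82) in OLFM4-knockout cells and 4.60 CPM (3.78 to 5.55) in the library labelled OLFM4-active. The intervals of OLFM4-wild and OLFM4-knockout cells overlapped, and the library labelled OLFM4-active lay below both. Its log2 fold change was -0.25 (-0.52 to 0.04) in OLFM4-knockout cells, not distinguishable from 0 at this depth with TMM, and -0.60 with totals. The value for the library labelled OLFM4-active was -0.86 (-1.23 to -0.50).

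Sequences before the annotated starts are shown for VIM, FN1 and ZEB1, the genes that passed the limit in any comparison with TMM. Each is the 250 bases before a RefSeq gene start, read 5′ to 3′ along the gene's strand on GRCh38.p14. Capitals mark the E-box CAGGTG or its reverse complement CACCTG, the site that SNAIL and ZEB factors are known to bind, searched on both strands. The VIM window is chr10:17227991-17228240 on the plus strand, the FN1 window chr2:215436069-215436318 on the minus strand, and the ZEB1 window chr10:31318167-31318416 on the plus strand, before the most upstream of its 7 starts.
VIM: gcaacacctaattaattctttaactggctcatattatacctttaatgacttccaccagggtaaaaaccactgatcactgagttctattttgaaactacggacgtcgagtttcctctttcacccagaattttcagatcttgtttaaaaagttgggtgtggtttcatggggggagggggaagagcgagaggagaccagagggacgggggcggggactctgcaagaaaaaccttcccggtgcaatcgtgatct
FN1: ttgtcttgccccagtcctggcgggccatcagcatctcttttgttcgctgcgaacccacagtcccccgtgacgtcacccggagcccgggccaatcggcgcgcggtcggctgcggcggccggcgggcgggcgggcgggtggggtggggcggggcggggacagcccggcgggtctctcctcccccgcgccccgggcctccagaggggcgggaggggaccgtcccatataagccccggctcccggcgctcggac
ZEB1: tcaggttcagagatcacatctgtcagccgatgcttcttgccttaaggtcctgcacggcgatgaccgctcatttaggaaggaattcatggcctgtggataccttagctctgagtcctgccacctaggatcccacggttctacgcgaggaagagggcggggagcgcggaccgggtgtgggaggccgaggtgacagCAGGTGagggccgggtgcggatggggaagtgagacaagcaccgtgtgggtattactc
The VIM and FN1 windows hold neither spelling of the motif, and the ZEB1 window holds CAGGTG at -57, counted from the base before the start as -1. Of the 7 ZEB1 windows 2 hold the motif, the other at -242 and -85 before its own start. Both CDH2 windows lack it. Of all 35116 RefSeq windows of this length, 17.5% hold it at least once. Windows of 4 of the 10 genes were read. A match is a description of the letters and not of a bound site.

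ESRP1, an RNA-binding protein that directs epithelial splicing, lies at chr8:94641074-94707466 (plus strand). The gene had 2914 counts in OLFM4-wild cells, 7119 in OLFM4-knockout cells and 4247 in the library labelled OLFM4-active, or 160 CPM (155 to 166), 139 CPM (135 to 142) and 178 CPM (172 to 183). With TMM the order was thus the library labelled OLFM4-active, OLFM4-wild and OLFM4-knockout, with intervals that did not overlap. The log2 fold changes against OLFM4-wild were -0.21 (-0.27 to -0.15) and 0.15 (0.08 to 0.22), in OLFM4-knockout cells and the library labelled OLFM4-active. With totals they were -0.56 and 0.03, so the libraries other than OLFM4-knockout then lay close together. Counts per gene do not show the splicing that ESRP1 controls.

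OVOL1, a zinc finger factor that represses ZEB1 and holds epithelial cells in their state, lies at chr11:65787063-65797214 (plus strand). It had 752, 1840 and 628 counts, or 41.4 CPM (38.5 to 44.5) in OLFM4-wild cells, 35.8 CPM (34.2 to 37.5) in OLFM4-knockout cells and 26.3 CPM (24.3 to 28.4) in the library labelled OLFM4-active. Its lowest level was in the library labelled OLFM4-active under either scaling, as for FN1 and TWIST1. VIM and ZEB1 were also lowest there with TMM, but with totals they were lowest in OLFM4-knockout cells. Its log2 fold change was -0.21 (-0.33 to -0.08) in OLFM4-knockout cells and -0.65 (-0.81 to -0.50) in the library labelled OLFM4-active. OVOL1 and ESRP1 counts kept a common ratio between the OLFM4-wild and OLFM4-knockout libraries, at 25.8 OVOL1 counts per 100 ESRP1 counts in each, whereas in the library labelled OLFM4-active there were 14.8 (13.6 to 16.1).

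**Figure D3:**
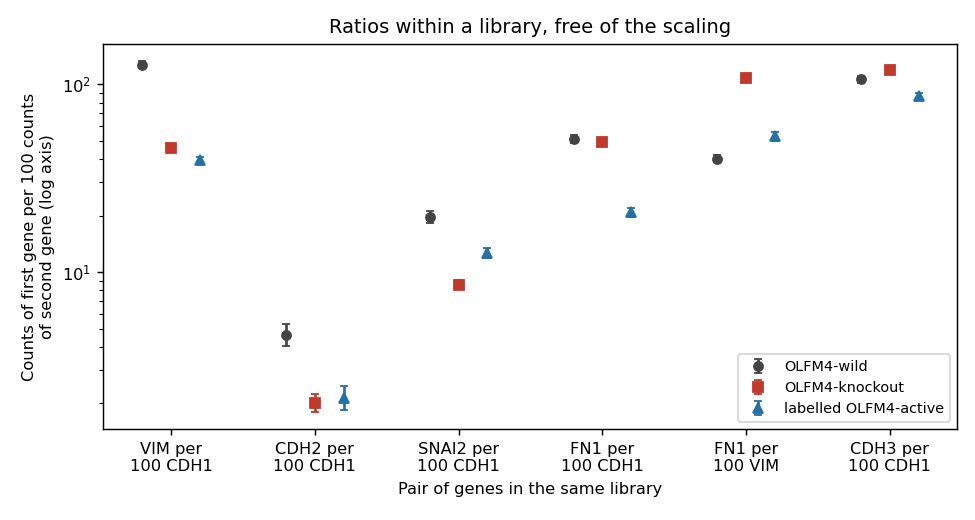
Counts of one gene per 100 counts of another in the same library, on a log axis, with 95% counting intervals; circles are OLFM4-wild, squares OLFM4-knockout and triangles the library labelled OLFM4-active. VIM, CDH2 and SNAI2 per 100 CDH1 were highest in OLFM4-wild cells, FN1 per 100 CDH1 was 51.2, 49.3 and 20.8 in that order, and FN1 per 100 VIM was highest in OLFM4-knockout cells.

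Among 14 transcription factors known to induce the transition, 8 passed 1 CPM, and 7 of these were below 0 in OLFM4-knockout relative to OLFM4-wild cells. The median of the 8 was -0.68, beside 0.10 over all genes. Of the 8, 1 was called higher and 3 lower, where 5.77% and 7.56% of all genes were. With totals the calls were 0 and 4, beside 2.22% and 13.9% of all genes. The 8 include SNAI2, ZEB1 and TWIST1, and of the other 5 genes 1 was called higher and 2 lower with TMM. Besides ZEB1 the lower calls were KLF8, a Krüppel-like repressor of CDH1, at -2.86 (-3.54 to -2.25), and TCF4, an E-protein of the helix-loop-helix family, at -1.52 (-1.72 to -1.33). KLF8 had 78 counts in OLFM4-wild cells, 30 in OLFM4-knockout cells and 103 in the library labelled OLFM4-active. Its log2 fold change in the last against OLFM4-wild was 0.00 (-0.43 to 0.45), and -0.11 with totals. SOX4 had -0.46 and -0.70 in OLFM4-knockout cells and the library labelled OLFM4-active. In the library labelled OLFM4-active the median of the 8 was -0.49, beside 0.05 over all genes. There 0 were called higher and 1, ZEB1, lower, where 3.78% and 6.73% of all genes were. With totals 0 were called higher and 2 lower, beside 2.89% and 8.36% of all genes. SNAI1, the gene of SNAIL, had 9, 15 and 23 counts and ZEB2 had 21, 29 and 6, both under the filter.

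All 13 transcription and splicing factors of the epithelial state passed the filter. In each comparison with OLFM4-wild 0 were called higher and 2 lower, with TMM and with totals. Of all genes 7.56% were called lower in OLFM4-knockout cells and 6.73% in the library labelled OLFM4-active, and 13.9% and 8.36% with totals. The list medians were -0.21 in OLFM4-knockout cells and -0.38 in the library labelled OLFM4-active, beside 0.10 and 0.05 over all genes. With totals the list medians were -0.56 and -0.50, beside -0.26 and -0.07. EHF, an ETS factor of differentiated epithelium, had 945 counts in OLFM4-wild cells, 441 in OLFM4-knockout cells and 145 in the library labelled OLFM4-active, for log2 fold changes of -2.60 (-2.76 to -2.43) and -3.10 (-3.36 to -2.85). ELF3, a related ETS factor, had -1.31 (-1.51 to -1.12) and -2.10 (-2.40 to -1.82) in the same order. Both EHF and ELF3 were therefore lower in the same 2 libraries in which VIM and ZEB1 were lower. KLF4, which promotes squamous differentiation, had -0.51 and -0.87, and KLF5, a factor of basal and proliferating epithelium, had 0.82 and 0.63. Of the 8 microRNA genes and hosts of the miR-200 and miR-205 families, 7 were found and 2 passed. The miR-200c and miR-141 host MIR200CHG had 32, 44 and 18 counts, with log2 fold changes of -1.04 (-1.73 to -0.33) and -1.21 (-2.15 to -0.35). The miR-205 host MIR205HG had -0.27 and -0.46. MIR200C was listed at 0 in every library, and such libraries do not measure mature microRNAs.

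Among the mesenchymal cytoskeleton and matrix genes 15 of 18 passed. In OLFM4-knockout relative to OLFM4-wild cells 1 was called higher and 6 lower, 5 of them besides VIM, with a median of -0.85, where 5.77% and 7.56% of all genes were called higher and lower. With totals 0 were higher and 8 lower, where the shares of all genes were 2.22% and 13.9%. In the library labelled OLFM4-active 1 was higher and 8 lower, with a median of -1.13, where the shares of all genes were 3.78% and 6.73%, and with totals 1 and 10, where they were 2.89% and 8.36%. SPARC, a collagen-binding matrix protein, had 1385, 1059 and 557 counts, or log2 fold changes of -1.89 and -1.71. COL5A1, a chain of collagen V, had -1.54 and -1.70, and COL6A1, a chain of collagen VI, had -0.93 and -1.64. TNC, the matrix protein tenascin-C, had -1.62 and -0.91. THBS1, which encodes thrombospondin-1, was the higher call in OLFM4-knockout cells at 1.05, and had 0.98 in the library labelled OLFM4-active, just under the limit. TAGLN, which encodes transgelin, was the higher call in the latter at 1.49, and had 0.98 in OLFM4-knockout cells. Both were named after their values were seen, and with totals THBS1 had 0.70 in OLFM4-knockout cells.

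**Figure D4:**
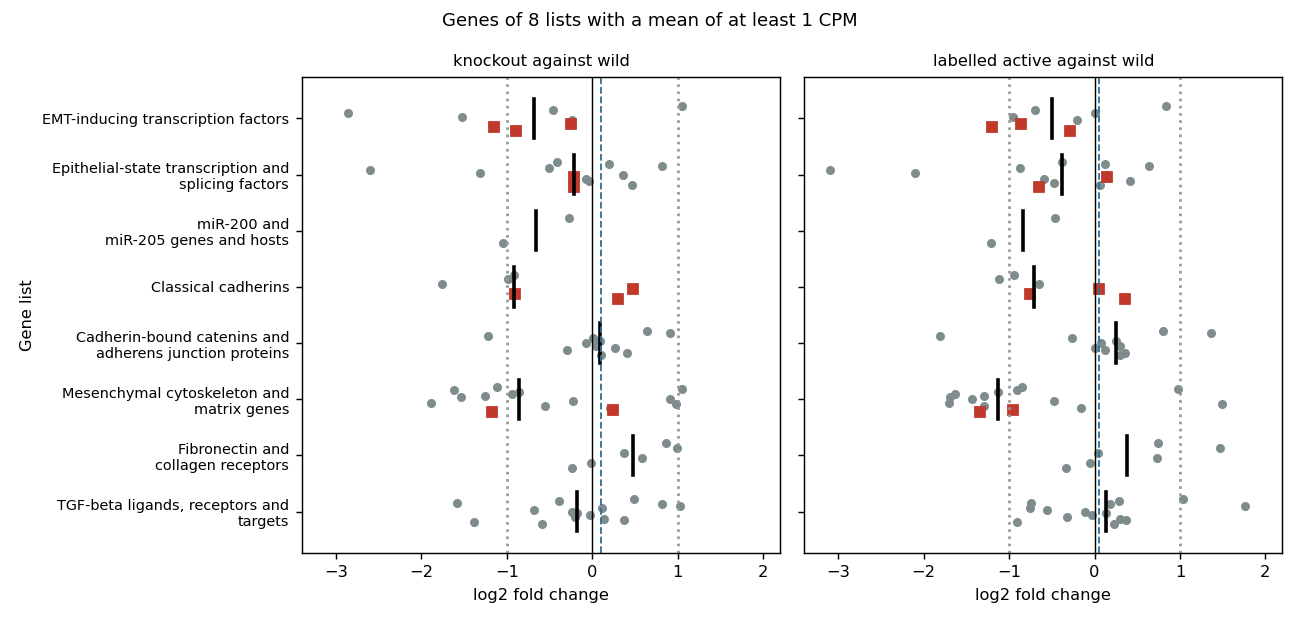
Log2 fold change with TMM of each gene averaging 1 CPM or more in 8 lists, in OLFM4-knockout cells (left) and the library labelled OLFM4-active (right) against OLFM4-wild cells. Squares are among the 10 genes, circles are other list genes, black bars are list medians, the dashed line is the median of all 16600 genes and dotted lines mark -1 and 1; the mesenchymal list has medians of -0.85 and -1.13, and fibronectin and collagen receptors 0.48 and 0.38.

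Of 12 catenins and adherens junction genes, 11 passed, with medians of 0.09 in OLFM4-knockout cells and 0.25 in the library labelled OLFM4-active, beside the 0.10 and 0.05 of all genes. With totals they were -0.26 and 0.13, beside -0.26 and -0.07. CTNNB1, which encodes beta-catenin, the cytoplasmic partner of E-cadherin, had 0.40 and 0.36, and EPCAM, an epithelial adhesion molecule, had 0.64 and 0.80. NECTIN4 was called lower in both libraries, at -1.22 (-1.36 to -1.07) and -1.81 (-2.03 to -1.61), and VCL, which encodes vinculin, was called higher in the library labelled OLFM4-active, at 1.36 (1.30 to 1.42), beside 0.91 in OLFM4-knockout cells. These were the only calls among the 11, with TMM and with totals. Of all genes 5.77% were called higher and 7.56% lower in OLFM4-knockout cells, and 3.78% and 6.73% in the library labelled OLFM4-active. With totals the shares were 2.22% and 13.9%, and 2.89% and 8.36%. Among the receptors for fibronectin and collagen 6 of 10 passed, with medians of 0.48 and 0.38, and of 0.13 and 0.27 with totals. ITGA2, the alpha chain of a collagen-binding integrin, had 0.99 and 1.47, and SDC4 had 0.86 and 0.74. The ITGA2 value of 1.47 was the only call among the 6, with TMM and with totals, beside the same shares of all genes. ITGB1, the common beta chain, had 0.59 and 0.73. ITGB6 had 0.37 and 0.04, and 0.02 and -0.08 with totals.

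All 15 genes of the TGF-beta list, a pathway that induces the transition, passed the filter. The median was -0.18 in OLFM4-knockout cells and 0.14 in the library labelled OLFM4-active, beside 0.10 and 0.05 over all genes. In the former 1 gene was called higher and 2 lower, where 5.77% and 7.56% of all genes were. In the latter 2 were called higher and 0 lower, beside 3.78% and 6.73% of all genes. With totals these counts were 0 and 3, and 1 and 1. The shares of all genes with totals were 2.22% and 13.9%, and 2.89% and 8.36%. PMEPA1, a target gene of the pathway, had 0.49 and 1.04, and 0.14 and 0.92 with totals. The ligand gene TGFB2 had -1.38 (-1.66 to -1.09) and -0.91, and LTBP1, which encodes a protein that holds latent TGF-beta in the matrix, had -1.59 (-1.85 to -1.33) and -0.75.

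Markers of other cell types were read beside these genes, since in bulk RNA fewer cells of a type cannot be told apart from less RNA per cell. All 6 basal markers passed, and their summed level was 18817 CPM in OLFM4-wild cells, 41149 in OLFM4-knockout cells and 22872 in the library labelled OLFM4-active, most of it KRT5. The 6 luminal markers, of which 3 passed, summed to 462, 424 and 306 CPM. Among them KLK3, which encodes prostate-specific antigen, had 2 counts in OLFM4-wild cells and 0 in the others, so this marker of luminal prostate was near absent. Among 8 fibroblast markers 2 passed, COL1A1 and COL1A2, which the mesenchymal list also holds. The summed fibroblast level was 34.5, 32.0 and 23.4 CPM in OLFM4-wild cells, OLFM4-knockout cells and the library labelled OLFM4-active. COL1A1 made up most of each sum, which hides moves of the scarcer markers. In the same order COL1A2 had 50, 268 and 24 counts, DCN 18, 33 and 0, PDGFRB 3, 8 and 2, and THY1 5, 10 and 12. PDGFRA had 1 count in each, and LUM and COL3A1 were at 0 in all. The 5 smooth muscle markers summed to 23.9, 12.0 and 13.1 CPM, mostly from MYH11 with 388, 519 and 284 counts, with DES and ACTG2 at 0 in all. The 4 endothelial markers summed to 1.76, 0.838 and 0.460 CPM, with CDH5 at 0. The 4 leukocyte markers summed to 31.4, 24.7 and 19.8 CPM, nearly all from CD68, with CD3E at 0. Every marker sum but the basal one was, like VIM and CDH2, highest in OLFM4-wild cells. The luminal sum was nearly all KRT8, with 282, 231 and 146 CPM, and KRT18, with 177, 191 and 157 CPM. KRT18 was thus highest in OLFM4-knockout cells with TMM, at a log2 fold change of 0.11 against OLFM4-wild cells, and -0.24 with totals. None of the endothelial markers passed the filter, so the order of that sum rests on few counts. The basal sum was lowest in OLFM4-wild cells and highest in OLFM4-knockout cells. VIM was lowest in the library labelled OLFM4-active with TMM, but in OLFM4-knockout cells with totals. With TMM, COL1A2 had the same order of CPM across the libraries as FN1. With totals the order was not shared, as COL1A2 was at 0.56 and FN1 at -0.11 in OLFM4-knockout relative to OLFM4-wild cells. The log2 fold change of COL1A2 in OLFM4-knockout cells against the library labelled OLFM4-active was 2.35, beside 1.20 for FN1. With totals these were 2.11 and 0.96. DCN was, by CPM, highest in OLFM4-wild cells and absent from the library labelled OLFM4-active. The part of these cell types in the results for the 10 genes was not tested.

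For 7 of the genes, those that averaged 10 CPM or more, the whole table was searched for the genes with the nearest pattern, by the Euclidean distance between log2 CPM centred over the 3 libraries. With only 3 points per gene many patterns coincide: 474 of 10597 genes lay within 0.1 of CDH1 and 446 within 0.1 of CDH3. The patterns of VIM and FN1 were less common, with 9 and 3 genes within 0.1. HJURP, with 61.5, 27.5 and 24.5 CPM in OLFM4-wild cells, OLFM4-knockout cells and the library labelled OLFM4-active, and CDK18 were nearest to VIM, and BRME1 and RAC3 to FN1. F2R and CTIF were nearest to SNAI2, KCTD11 and RPSAP15 to OVOL1, and ARMH3 and ZNF384 to ESRP1. ZDHHC18 and RBMX were nearest to CDH1, and VPS16 and ENSG00000260342 to CDH3.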

How the data were processed

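The authors trimmed reads with cutadapt, aligned read pairs to GRCh38 with HISAT2 and counted uniquely mapped, reversely stranded pairs per gene with featureCounts, from stranded libraries of total RNA depleted of ribosomal RNA. The deposited values are whole-number counts without normalization, and each column was matched to its library by the name in the sample description. Here TMM factors came from edgeR 4.0.16 and log2 fold changes, with an offset of 0.5 counts, follow limma 3.58.1, in R 4.3.3 and Python 3.11.15. With 1 library per group no test across conditions was possible, and the 95% Clopper-Pearson intervals cover counting error only. The procedure was tested on simulated data. GENCODE version 44 gave positions and lengths for 56948 genes. TPM were taken over merged exons. The 10 genes, the 8 pathway lists and the 6 marker lists were chosen with earlier results of these data known, and the pairs of genes for ratios after their values were seen. Named list genes are at most 4 per list, those with the largest difference from OLFM4-wild among genes of at least 1 CPM; other named genes are overlapping genes, nearest patterns, single calls and list genes with few counts. Alternatives were library totals, DESeq2 1.42.0 size factors, upper quartile factors, offsets of 1 and 5 counts, other filters, a threshold of 2, thinning to the smallest library and library sizes without the 10 most abundant genes. After seeing the data, factors from the 2 libraries compared and canonical transcript lengths were added. Planned comparisons of proteins were not made. Values of some list genes are not reported here.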

Additional observations from a re-analysis of the deposited data

How the results depend on the processing

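With library totals 4 of the 10 genes were below -1 in OLFM4-knockout relative to OLFM4-wild cells in place of 2, and 0 were above 1 in OLFM4-knockout cells against the library labelled OLFM4-active in place of 1, by the shift of all genes. The share of all calls that were higher moved from 36% to 25.7% in the library labelled OLFM4-active and from 46.5% to 15.7% between OLFM4-knockout cells and it. At the threshold of 2, 0 genes were called in any comparison, where 2, 2 and 1 were called at 1. The other alternatives kept these counts within 1.5 times. Of the 10 values in OLFM4-knockout relative to OLFM4-wild cells, totals changed the sign of 2, CDH1 and FN1, and in the library labelled OLFM4-active of 1, CDH3. Between OLFM4-knockout cells and the library labelled OLFM4-active, totals took VIM from 0.16 to -0.07 and ZEB1 from 0.04 to -0.19. VIM stayed between -1.53 and -1.13 in OLFM4-knockout cells and between -1.46 and -1.32 in the library labelled OLFM4-active over the alternatives, and ZEB1 between -1.51 and -1.04 and between -1.33 and -1.10. With canonical transcript lengths VIM had 248, 71.4 and 92.5 TPM in OLFM4-wild cells, OLFM4-knockout cells and the library labelled OLFM4-active, in place of 135, 37.5 and 50.6, and FN1 had 25.6, 19.8 and 12.5 in place of 16.3, 12.2 and 8.03. VIM then passed CDH1, at 70.1, in OLFM4-knockout cells and ESRP1, at 67.9, in the library labelled OLFM4-active, FN1 passed OVOL1 in OLFM4-wild cells and SNAI2 passed OVOL1 in OLFM4-knockout cells. No paired analysis was possible because each group has 1 library. ZEB1, with 25 to 56 counts, is the least precise of the 10 genes.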

Other observations

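Several of the genes overlap an annotated RNA on the opposite strand that was counted as well, in libraries whose counting used strand. VIM-AS1, which starts beside VIM in the opposite direction, had 1933 counts in OLFM4-wild cells, 3163 in OLFM4-knockout cells and 790 in the library labelled OLFM4-active, or 30.3, 39.7 and 23.9 per 100 VIM counts. ENSG00000234961, on the same opposite strand of VIM, had 30.9, 29.9 and 28.9 per 100. ZEB1-AS1 had 45, 66 and 38 counts, or 102, 118 and 152 per 100 ZEB1 counts, so the antisense RNA was counted at least as often as the coding gene. The same-strand pseudogene SPTLC1P1 within ZEB1 had 21, 34 and 25 counts.

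At the cadherin pair on chromosome 16, the antisense ENSG00000260798 had 12.1, 11.9 and 13.5 counts per 100 CDH1 counts in OLFM4-wild cells, OLFM4-knockout cells and the library labelled OLFM4-active. CDH3-AS1 instead had 3.31, 5.67 and 3.51 per 100 CDH3 counts, and its log2 fold change of 1.25 in OLFM4-knockout relative to OLFM4-wild cells was larger than the 0.47 of CDH3. ENSG00000255404, opposite to OVOL1, had 40.2, 37.7 and 41.9 per 100 OVOL1 counts. The antisense ENSG00000227279 had 19, 29 and 7 counts beside CDH2. Whether these are separate transcripts or reads of the sense gene on the other strand was not tested.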
